A study of Mus musculus with 12 samples.

Results

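Long intergenic noncoding RNAs (lincRNAs) were followed in hematopoietic stem cells (HSCs) sorted from mouse bone marrow. The members were the features typed lincRNA in the deposited table that lie on chromosomes 1 to 19 and reached 1 RPKM (reads scaled to transcript length and library depth) in at least 3 of the 12 libraries. H19 and Meg3 were left out by the rule, and both also stayed under that level. The rule kept 99 of the 2927 lincRNA features on these chromosomes (3.38%), out of 46986 features in all, whereas 7212 of 21970 protein-coding features (32.8%) reached the same level. Members were thus selected on their RPKM values over all 12 libraries, so the levels below are a description and not a test.

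The study asked how HSCs at steady state and HSCs regenerating after chemotherapy differ in mice with and without a depleted gut flora. There were 4 groups of 3 libraries, all from 12-week-old C57BL/6 mice. ABX 5-FU mice received ampicillin, vancomycin, neomycin and metronidazole by drinking water over 4 to 6 weeks and then 200 mg/kg 5-fluorouracil (5-FU, a drug that kills dividing marrow cells) intravenously, and were sampled on day 12. ABX mice received the same antibiotics without 5-FU, Ctrl 5-FU mice received 5-FU without antibiotics, and Ctrl mice received neither. Each library started from RNA of 2000 sorted cells, copied into cDNA with SMART-Seq v4, a method that primes on poly(A) tails and keeps no record of the strand. Nothing in the labels states that each library came from its own mouse, so p-values measure only the spread among these libraries, which may be technical.

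LincRNAs are transcripts of RNA polymerase II, capped and mostly spliced and polyadenylated like mRNAs, from loci that lie apart from coding genes. Most are present at lower levels than mRNAs and vary more between cell types. Some act in the nucleus on splicing or chromatin (Malat1, Neat1), some carry small nucleolar RNAs in their introns (the Snhg genes), some bind microRNAs (Cyrano), and for most no role is known.

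The sequences of 4 start regions are shown because these loci changed the same way after 5-FU in mice with and without antibiotics, the first 3 higher and the last lower. They come from the RefSeq promoter table (GRCm38.p6), run from 250 bases before to 50 bases after the annotated start, and the 50 bases after the start are in capitals.
4833407H14Rik, chr19:53460372-53460671, + strand: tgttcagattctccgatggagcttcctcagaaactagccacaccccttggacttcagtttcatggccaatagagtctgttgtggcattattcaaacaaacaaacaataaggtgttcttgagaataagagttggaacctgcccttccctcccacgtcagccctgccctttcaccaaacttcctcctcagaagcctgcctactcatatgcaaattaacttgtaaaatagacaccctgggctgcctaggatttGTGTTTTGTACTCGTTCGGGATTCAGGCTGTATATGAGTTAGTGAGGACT
1700096K18Rik, chr5:25529768-25530067, + strand: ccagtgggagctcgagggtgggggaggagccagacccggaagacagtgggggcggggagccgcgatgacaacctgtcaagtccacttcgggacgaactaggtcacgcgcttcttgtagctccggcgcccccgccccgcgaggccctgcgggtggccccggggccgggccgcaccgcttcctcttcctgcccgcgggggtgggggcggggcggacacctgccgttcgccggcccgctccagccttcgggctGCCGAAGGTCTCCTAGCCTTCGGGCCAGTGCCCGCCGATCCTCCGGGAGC
Gm16001, chr5:124112197-124112496, - strand: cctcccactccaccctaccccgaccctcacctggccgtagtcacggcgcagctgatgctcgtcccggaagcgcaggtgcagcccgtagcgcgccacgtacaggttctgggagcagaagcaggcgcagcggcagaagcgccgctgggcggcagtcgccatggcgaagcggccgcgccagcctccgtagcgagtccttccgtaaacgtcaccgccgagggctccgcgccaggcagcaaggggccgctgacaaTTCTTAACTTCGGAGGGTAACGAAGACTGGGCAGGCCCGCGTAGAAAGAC
Rbakdn, chr5:143165702-143166001, - strand: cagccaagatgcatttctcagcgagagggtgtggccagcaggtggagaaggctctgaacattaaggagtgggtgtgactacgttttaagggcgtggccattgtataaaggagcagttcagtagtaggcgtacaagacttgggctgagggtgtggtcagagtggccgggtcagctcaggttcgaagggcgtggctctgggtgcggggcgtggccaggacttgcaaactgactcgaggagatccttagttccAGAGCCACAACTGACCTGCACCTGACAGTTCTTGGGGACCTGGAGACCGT
The start regions of 1700096K18Rik (74.0% G or C, 33 CpG pairs) and Gm16001 (67.7%, 34 CpG pairs) are rich in CpG, whereas that of 4833407H14Rik holds 45.7% G or C and 4 CpG pairs. Rbakdn lies between them at 56.7% and 11 CpG pairs. On both strands none of the 4 windows contains TGANTCA (AP-1), CACGTG (E-box), the NF-kB motif or TGACGTCA (CRE). Over 32851 promoters of the same length these motifs occur in 7.81%, 7.15%, 1.47% and 1.79%, so their lack in 4 windows is the usual case.

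A pair of further sequences shows what is special about 2 abundant members. Malat1 has no ordinary poly(A) tail: RNase P cuts its transcript after a genome-encoded A-rich tract, which folds into a triple helix and protects the end. The longest A run of the annotated transcript (GENCODE M21, 12 bases, in capitals) is shown with the bases around it.
Malat1: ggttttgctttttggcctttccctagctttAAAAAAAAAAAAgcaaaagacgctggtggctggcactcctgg
1700020I14Rik is named Oip5os1 in RefSeq and is known as Cyrano, a transcript that binds miR-7 and leads to its decay. Its 8300-nt GENCODE transcript holds 2 matches to the miR-7a seed. The match at base 2952 is printed under miR-7a-5p (RefSeq, chr7:78888295-78888317, + strand), with the seed and its match in capitals.
miR-7a-5p: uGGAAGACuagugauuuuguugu
1700020I14Rik site: agaacaacaaaatcaccaatGTCTTCCa
Upstream of this seed match a further stretch of 13 bases is complementary to the microRNA, against 3 bases at the other match. The microRNA itself was not measured in these libraries.

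The authors deposited no read counts. From the step size of low RPKM values the depth was estimated at 27.8 to 55.0 M reads per library (ABX 5-FU 31.7 to 38.7, ABX 29.1 to 37.8, Ctrl 5-FU 27.8 to 54.2, Ctrl 44.3 to 55.0). At these depths 1 RPKM of a member of median exon length corresponds to about 51 to 101 reads. The sorted cells held 9 of 10 HSC marker genes at 1 RPKM or more in some library, at a summed 205 to 233 RPKM in ABX 5-FU, 166 to 206 in ABX, 225 to 245 in Ctrl 5-FU and 192 to 206 in Ctrl libraries, whereas Mecom stayed under 1 RPKM in all. Neutrophil markers summed to 12.2 to 36 RPKM in ABX 5-FU, 8.91 to 19 in ABX, 34.2 to 292 in Ctrl 5-FU and 9.54 to 20.5 in Ctrl libraries, and all 8 reached 1 RPKM in some library. Erythroid markers summed to 146 to 403 RPKM in ABX 5-FU, 33.9 to 50.2 in ABX, 129 to 194 in Ctrl 5-FU and 23.2 to 245 in Ctrl libraries. Megakaryocyte markers, which HSCs share in part, summed to 99.6 to 112 RPKM in ABX 5-FU, 77.8 to 80.5 in ABX, 92.2 to 381 in Ctrl 5-FU and 53.7 to 140 in Ctrl libraries. Among B cell markers 5 of 6 stayed under 1 RPKM everywhere. Macrophage markers summed to 6.33 to 7.18 RPKM in ABX 5-FU, 3.34 to 15.5 in ABX, 3.16 to 6.98 in Ctrl 5-FU and 2.21 to 8.08 in Ctrl libraries. Stroma and endothelium markers summed to 0.558 to 27.1 RPKM in ABX 5-FU, 0.392 to 1.11 in ABX, 0.376 to 13 in Ctrl 5-FU and 0.421 to 5.41 in Ctrl libraries. The part of such cells in the 5-FU changes of lincRNAs was not tested. The i7 sequencing indexes of 5-FU libraries were never used for libraries without 5-FU, so i7 index and drug cannot be told apart. The other index of each library occurs both with and without 5-FU. Ctrl 5-FU replicate 1 was the shallowest library and correlated at 0.971 and 0.972 with the rest of its group over the 8553 tested features, against 0.985 to 0.993 for the other pairs within groups. In bulk samples, fewer cells of a type and less RNA per cell cannot be told apart.

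Most members were scarce, and a few loci made up most of the signal. The median member averaged 1.53 RPKM over the 12 libraries, against 3.43 RPKM for the protein-coding features that reached the same level. There were 59 members under 2 RPKM, 20 at 5 or more and 13 at 10 or more. The rule set the lower edge: by third-highest library, Gm26527, 1700056N10Rik and Gm26765 were just inside at 1.02 RPKM each, and Gm17552, Gm20186 and Gm26762 just outside at 0.999, 0.991 and 0.983 RPKM. In 44 members every library reached 1 RPKM. The coefficient of variation among the 3 libraries of a group had a median of 11.2% for members at 5 RPKM or more and 21.3% for the others.

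**Figure D1:**
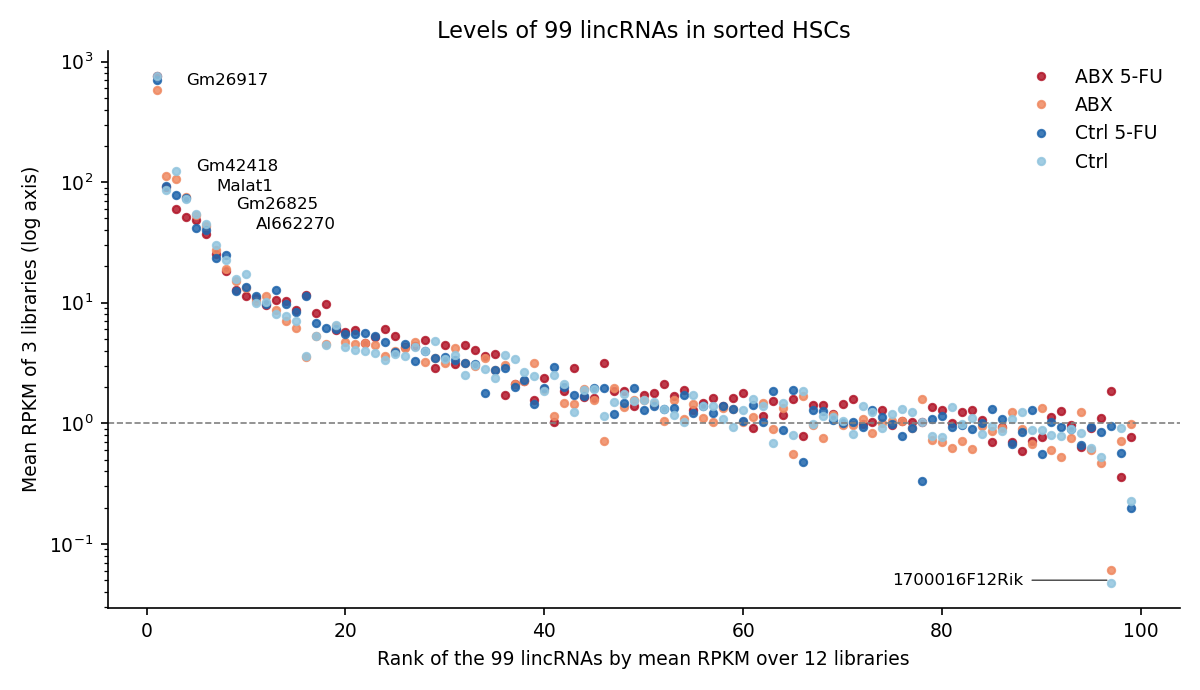
Mean RPKM of each of the 99 lincRNAs in the 4 groups (3 libraries each, log axis), ranked by the mean over all 12 libraries, with a dashed line at 1 RPKM. Gm26917 stands apart at the top with a mean of 700 RPKM, 59 members lie under 2 RPKM, and 1700016F12Rik shows the widest gap between groups.

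The most abundant member, Gm26917, held 33.2% to 61.4% of all member RPKM in a library. It measured 722, 703 and 848 RPKM in ABX 5-FU, 873, 342 and 544 in ABX, 593, 660 and 843 in Ctrl 5-FU, and 955, 614 and 700 in Ctrl libraries. The groups overlapped, and the ABX libraries alone spanned 342 to 873. Gm42418 came second with 91.6 ± 15.3 RPKM in ABX 5-FU, 112 ± 26.6 in ABX, 92.8 ± 3.13 in Ctrl 5-FU and 86.5 ± 16.5 in Ctrl libraries (SD, n = 3 each). Both lie on chromosome 17 (mm10, 39843013 to 39846341 and 39846958 to 39848788, + strand), next to and across Rn18s-rs5, an 18S ribosomal RNA feature of the opposite strand (39846353 to 39848827). Without strand, reads from Gm42418 and Rn18s-rs5 cannot be told apart. Gm26917 and Gm42418 were placed on a list of rRNA-like lincRNAs, and the part of ribosomal RNA in their signal was not tested. Rn18s-rs5 averaged 2010 ± 48.6 RPKM in ABX 5-FU libraries, against 1060 ± 98.3 in Ctrl 5-FU libraries (log2 change 0.92 ± 0.09, SE, limma adjusted p = 0.00206), and 2130 ± 237 RPKM in ABX libraries, against 1380 ± 93.3 in Ctrl libraries (0.62 ± 0.09, adjusted p = 0.0389). The call at steady state was lost without any 1 Ctrl library or without ABX replicate 1 (adjusted p up to 0.177). Neither lincRNA beside it was called in any comparison, with adjusted p of 0.227 or more.

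The other 97 members together summed to 496 to 520 RPKM in ABX 5-FU, 523 to 575 in ABX, 516 to 564 in Ctrl 5-FU and 527 to 636 in Ctrl libraries. Those at the top were Malat1 (a nuclear-speckle RNA), Gm26825, AI662270, AW112010 (a transcript known from immune cells, in which a translated open reading frame has been described), Gm19590, Gm28875, Gm26619 and C330006A16Rik. Gm26825 is uncertain as a gene of its own, since 98.6% of its transcript is at least 95% identical to other transcripts, among them that of Hspa8, a heat-shock protein gene. Gm26619 shares 50.5% of its transcript with Rps18, a ribosomal protein gene, and its pseudogenes. Cyrano (1700020I14Rik) varied little, with 11.1, 11.2 and 10.2 RPKM in ABX 5-FU, 10.9, 10.2 and 9.79 in ABX, 11.5, 10.6 and 12.0 in Ctrl 5-FU, and 10.7, 9.70 and 9.34 in Ctrl libraries. Its log2 change after 5-FU was 0.07 ± 0.08 with antibiotics (adjusted p = 0.506) and 0.18 ± 0.08 without (adjusted p = 0.109).

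The loci themselves are of mixed kind. Of the 99 members 97 were matched to GENCODE M21, where 75 are still lincRNAs, 8 are lncRNAs of a bidirectional promoter, 6 are antisense, 4 are processed transcripts, 1 is a pseudogene and 3 are protein-coding (6330403K07Rik, Gm42517 and Platr17). Their exons sum to a median of 1831 nt (379 to 20771 nt), and 61 have 2 or 3 exons, 18 have 1 and 18 have 4 or more. In the deposited coordinates 26 overlap a coding gene, 27 start head-to-head with a coding gene within 1000 bases (median 141 bases), and 22 lie more than 10000 bases from any. Of the 27, 7 also overlap a coding gene. For the 26 that overlap a coding gene the reads cannot be assigned to 1 strand. For 75 of the 97 transcripts no stretch of 100 nt or more matched an annotated transcript of another, non-overlapping gene at 95% identity. A further 4 shared at least 50% of their length. The genome itself was not searched, so the 75, with Gm26917 and Gm42418 among them, are not shown to be single-copy.

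5-FU without antibiotics (Ctrl 5-FU against Ctrl) raised 10 members and lowered 7, by limma with adjusted p under 0.05 over all 8553 tested features. The 10 are 10.1% of the members, against 9.74% of all tested features called higher, and the 7 are 7.07%, against 11.8% called lower, with 17.2% of members and 21.6% of all features called either way, so the share of higher calls was near that of all features. The median log2 change of the members was 0.001, against 0.005 over all features. Fold changes are on the scale log2(RPKM + 1), which understates those of low genes. Scaling matters here: rescaled to one total per library, which moves the median of all features to 0.138, 17 members were higher and 2 lower, and with quantile normalization 6 were higher and 10 lower. Of all features called, 45.1% were higher as deposited, 81.2% rescaled to one total and 45.0% after quantile normalization. The split over all features thus moved with the rescaling to one total. With quantile normalization it stayed, whereas the share of higher calls among the member calls went from 58.8% to 37.5%.

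The clearest rise was that of 1700016F12Rik, a 2-exon locus of unknown role 3539 bases from Anxa3. It measured 1.02, 0.499 and 1.31 RPKM in Ctrl 5-FU libraries, against 0.046, 0.0391 and 0.0583 RPKM in Ctrl libraries. All 3 Ctrl 5-FU libraries stood far above all Ctrl libraries, whose values correspond to an estimated 1.3, 1.3 and 2.1 reads. The change was 0.87 ± 0.14 (adjusted p = 0.00241). It passed the level rule only through 5-FU libraries and so had to differ in this direction.

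4833407H14Rik, which overlaps the noncoding gene Mirt1 on chromosome 19 and has no coding gene nearer than Dusp5 at 66386 bases, had the largest change among the calls. It measured 5.51, 15.9 and 12.6 RPKM in Ctrl 5-FU libraries, against 2.44, 5.10 and 3.36 RPKM in Ctrl libraries. The groups did not overlap, but the lowest 5-FU library lay close to the highest control. The change was 1.34 ± 0.34 (adjusted p = 0.0182), and the call was lost without Ctrl replicate 1 (adjusted p = 0.0647), Ctrl replicate 3 (0.059), Ctrl 5-FU replicate 2 (0.0592) or Ctrl 5-FU replicate 3 (0.0676).

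Gm28933, 3496 bases from the forkhead gene Foxn3, was the most abundant riser, with 11.5, 16.0 and 10.9 RPKM in Ctrl 5-FU and 5.97, 8.76 and 9.35 in Ctrl libraries. The groups did not overlap, and the change of 0.61 ± 0.16 (adjusted p = 0.0216) was not called without Ctrl replicate 1 (0.0677) or Ctrl 5-FU replicate 2 (0.0672). 1810058I24Rik, which encodes a mitochondrial micropeptide (Stmp1), had 5.45 ± 0.740 RPKM in Ctrl 5-FU libraries and 4.09 ± 0.271 in Ctrl libraries (0.34 ± 0.09, adjusted p = 0.0221). Epb41l4aos, which carries a small nucleolar RNA, had 5.50 ± 0.624 RPKM in Ctrl 5-FU libraries and 4.31 ± 0.226 in Ctrl libraries (0.29 ± 0.09, adjusted p = 0.0432). The calls of both were lost without Ctrl replicate 2, Ctrl replicate 3 or Ctrl 5-FU replicate 2, that of Epb41l4aos also without Ctrl replicate 1 or Ctrl 5-FU replicate 3, with adjusted p up to 0.0733 for 1810058I24Rik and 0.136 for Epb41l4aos. The remaining risers were Gm26724 (0.78), Gm16001 (0.43), B230354K17Rik (0.42), 1700096K18Rik (0.41) and 2310001H17Rik (0.22).

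These 5 lost their calls in 3 to 5 of the 6 fits that left out 1 library, and each of them in the fits without Ctrl replicate 1, Ctrl replicate 3 and Ctrl 5-FU replicate 3. The highest adjusted p were 0.146 for Gm26724, 0.145 for Gm16001, 0.0957 for B230354K17Rik and 0.135 for 2310001H17Rik, all without Ctrl replicate 3, and 0.102 for 1700096K18Rik, without Ctrl replicate 1. 2310001H17Rik reached 1 RPKM only in 5-FU libraries and so had to differ in this direction. Gm26724 owed its spread to Ctrl replicate 2, at 1.75 RPKM against 0.210 and 0.419 in the other Ctrl libraries. Its Ctrl 5-FU libraries had 1.68, 2.23 and 1.74 RPKM, and its reads overlap the nuclear-envelope gene Lemd2 on the other strand.

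Among the fallers, Rbakdn had the largest change. It lies 6435 bases from Rbak, a zinc-finger gene whose product binds the retinoblastoma protein. Rbakdn measured 0.405, 0.681 and 0.345 RPKM in Ctrl 5-FU libraries, against 1.13, 1.79 and 2.67 RPKM in Ctrl libraries. No 5-FU library reached the lowest control, and the change of -0.93 ± 0.20 (adjusted p = 0.0094) was called in every alternative run. Rbak itself, at 4.93 ± 0.334 RPKM in Ctrl 5-FU and 4.02 ± 0.174 in Ctrl libraries, was not called (0.24, adjusted p = 0.141).

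AI662270 was the most abundant faller, with 40.6, 41.7 and 42.9 RPKM in Ctrl 5-FU libraries and 52.5, 58.5 and 52.7 RPKM in Ctrl libraries. Replicates differed little and the groups were well apart, for a change of -0.38 ± 0.07 (adjusted p = 0.00514). This call was kept without any 1 library and was lost when values were rescaled to one total (adjusted p = 0.0693). The other fallers were 6330403K07Rik (-0.59), Gm15706 (-0.47), Gm16861 (-0.40), 1700007L15Rik (-0.30) and Gm26619 (-0.29), each lost in 4 or 5 of 6 fits without 1 library. Their highest adjusted p were 0.114 for 6330403K07Rik, 0.12 for Gm15706 and 0.144 for Gm26619 (all without Ctrl 5-FU replicate 3), and 0.0619 for Gm16861 and 0.142 for 1700007L15Rik (both without Ctrl replicate 2). Rps18, with which Gm26619 shares sequence, fell in the same comparison, to 122 ± 11.2 RPKM in Ctrl 5-FU libraries, against 157 ± 7.0 RPKM in Ctrl libraries (-0.36, adjusted p = 0.0153). Leaving out Ctrl replicate 1 also ended the calls of 6330403K07Rik, Gm15706, Gm16861 and Gm26619, and leaving out Ctrl 5-FU replicate 1 those of 6330403K07Rik, Gm16861, 1700007L15Rik and Gm26619. Of the 17 calls 3 (1700016F12Rik, Rbakdn and AI662270) were kept in all 6 fits without 1 library. Of these, 1700016F12Rik passed the level rule only through 5-FU libraries and so had to differ.

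5-FU in antibiotic-treated mice (ABX 5-FU against ABX) raised 19 members and lowered 6. The 19 are 19.2% of the members, against 13.7% of all tested features called higher, and the 6 are 6.06%, against 16.5% called lower. In both directions together 25 members (25.3%) were called, against 30.2% of all tested features. The member median was 0.086, against -0.014 over all features. Rescaled to one total, which moves the median of all features to 0.114, 27 members were higher and 2 lower, rescaled to one protein-coding total 26 and 2, and after quantile normalization 16 and 6. Of all features called, 45.4% were higher as deposited, 74.1% rescaled to one total, 61.9% to one protein-coding total and 47.7% after quantile normalization. Of the 25 calls, 6 were of members that passed the level rule only through libraries with, or only through libraries without, 5-FU and so had to differ: 15 higher and 4 lower calls are left without them. Without antibiotics 2 of the 17 calls were of this kind, leaving 8 higher and 7 lower.

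**Figure D2:**
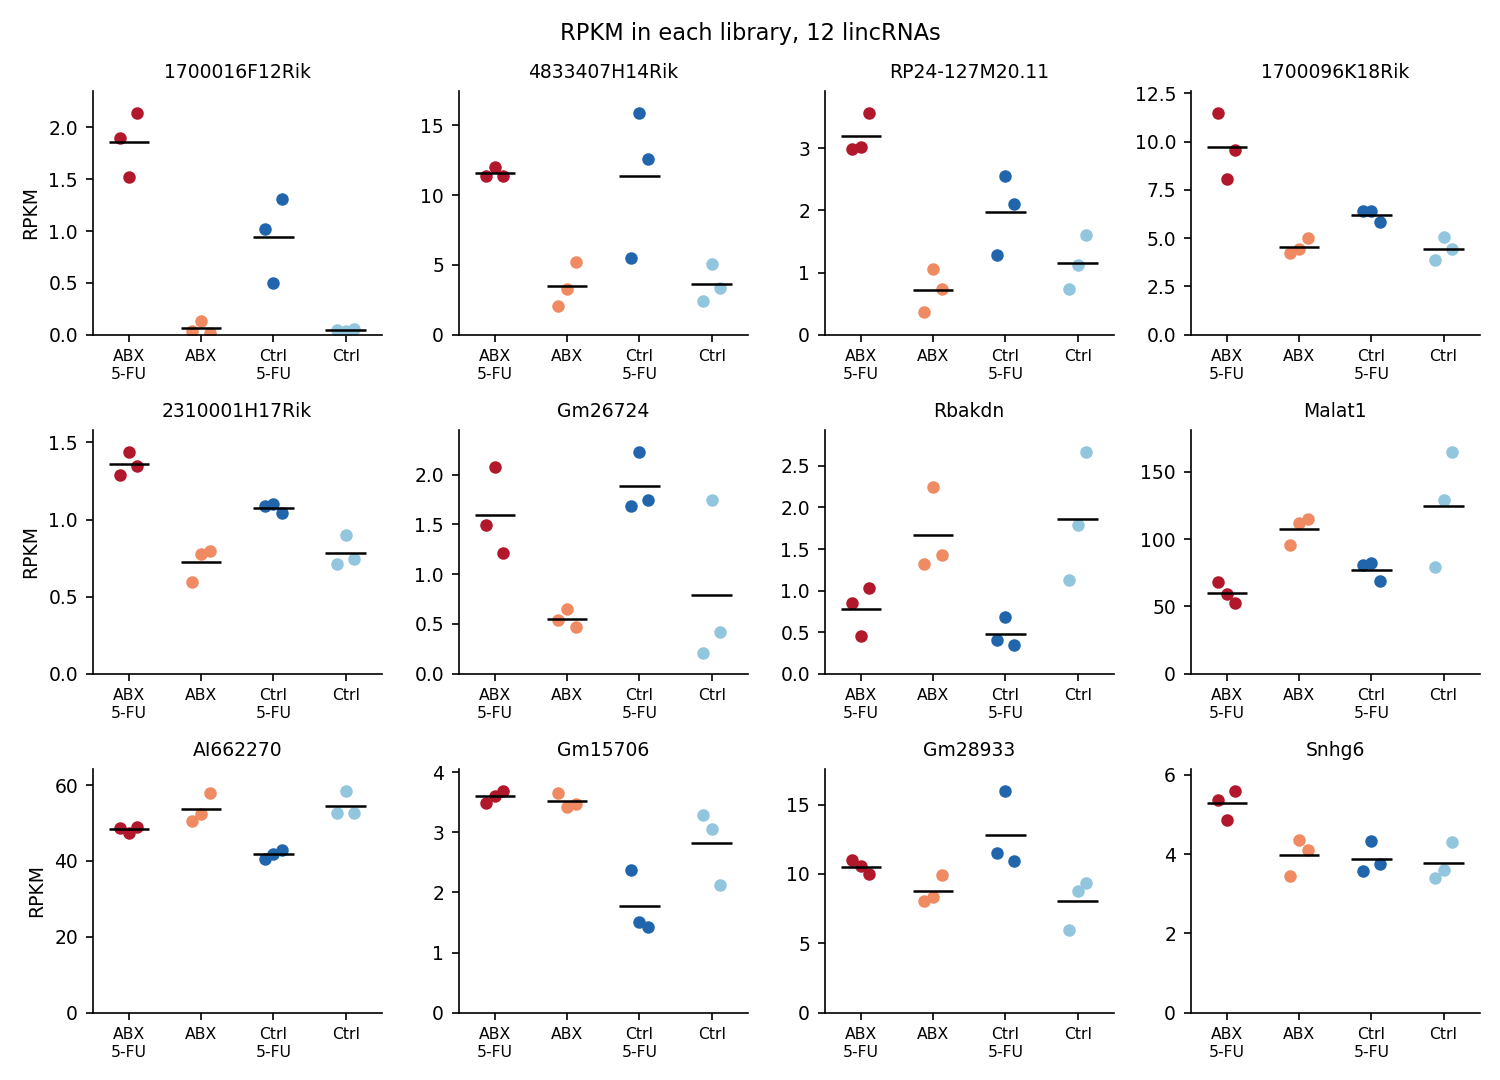
RPKM of 12 lincRNAs in each library (points) with the mean of 3 libraries (bar), in ABX 5-FU, ABX, Ctrl 5-FU and Ctrl; each panel has its own axis from 0. 1700016F12Rik is near 0 in all 6 libraries without 5-FU, Rbakdn and Malat1 are lower in ABX 5-FU than in ABX, and Gm15706 is higher in every ABX 5-FU library than in any Ctrl 5-FU library.

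1700016F12Rik again separated the groups widely, with 1.90, 1.52 and 2.14 RPKM in ABX 5-FU libraries, against 0.0376, 0.129 and 0.0154 RPKM in ABX libraries. The ABX values correspond to an estimated 0.8, 2.5 and 0.4 reads, so no fold is given. The change was 1.42 ± 0.14 (adjusted p = 0.000103). Here too it had to differ in this direction, since it passed the level rule only through 5-FU libraries. 4833407H14Rik was even among ABX 5-FU libraries, at 11.4, 12.0 and 11.4 RPKM, against 2.08, 3.28 and 5.21 RPKM in ABX libraries. No library overlapped, and the change was 1.54 ± 0.34 (adjusted p = 0.00671). 1700096K18Rik, a single-exon locus 11986 bases from Cct8l1, had 11.5, 8.06 and 9.57 RPKM in ABX 5-FU libraries and 4.21, 4.44 and 5.03 in ABX libraries, which did not overlap (0.93 ± 0.12, adjusted p = 0.000437).

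Of the risers, 2 lie in the natural killer gene complex of chromosome 6, where the lectin-like receptors Klrb1, Clec2 and Cd69 are encoded. RP24-127M20.11 (mm10, 128842558 to 128843171, - strand, Gm44066 in GENCODE) measured 2.99, 3.02 and 3.57 RPKM in ABX 5-FU libraries, against 0.367, 1.06 and 0.729 RPKM in ABX libraries. The groups were far apart, and the change was 1.30 ± 0.19 (adjusted p = 0.000966). In mice without antibiotics the same locus had 1.28, 2.55 and 2.11 RPKM in Ctrl 5-FU libraries and 0.734, 1.12 and 1.60 in Ctrl libraries, which overlapped and were not called (0.47 ± 0.19, adjusted p = 0.105). 2310001H17Rik (129208412 to 129238725, - strand), 21878 bases from the receptor gene Clec2d, had 1.29, 1.44 and 1.35 RPKM in ABX 5-FU libraries and 0.595, 0.775 and 0.797 in ABX libraries (0.46 ± 0.07, adjusted p = 0.00129). It had 1.09, 1.1 and 1.04 RPKM in Ctrl 5-FU libraries and 0.713, 0.898 and 0.742 in Ctrl libraries (0.22 ± 0.07, adjusted p = 0.0491), and in both settings the groups did not overlap. It reached 1 RPKM only in 5-FU libraries, passed the level rule through them and so had to differ in this direction.

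Klrb1c, the NK1.1 receptor gene of the same complex, rose as well, at 5.85 ± 0.512 RPKM in ABX 5-FU and 0.708 ± 0.113 in ABX libraries (2.004 ± 0.14, adjusted p = 1.49e-05), and 5.38 ± 1.05 RPKM in Ctrl 5-FU and 0.865 ± 0.336 in Ctrl libraries (1.78 ± 0.14, adjusted p = 3.54e-05). The 6 T and NK cell markers, of which Klrb1c is one, summed to 31.8 to 37.6 RPKM in ABX 5-FU, 23.9 to 27.8 in ABX, 38.8 to 54.9 in Ctrl 5-FU and 24.9 to 39.4 in Ctrl libraries. Clec2d, the coding gene nearest to 2310001H17Rik, had 0.587 ± 0.158 RPKM in ABX 5-FU and 0.909 ± 0.0956 in ABX libraries (-0.27, adjusted p = 0.151), and 1.06 ± 0.313 RPKM in Ctrl 5-FU and 0.505 ± 0.236 in Ctrl libraries (0.46, adjusted p = 0.0339). Klrb1b did not exceed 0.0051 RPKM in any library. Of the 6 T and NK cell markers, Cd3e, Cd3g, Gzma and Ncr1 stayed under 1 RPKM in all 12 libraries. Klrb1c and Nkg7 reached the tested level, and Nkg7 was not called. The part of such cells in these changes was not tested.

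A further 4 risers kept their calls without any 1 library. C920006O11Rik had 1.62, 2.29 and 2.40 RPKM in ABX 5-FU libraries and 1.01, 1.26 and 0.888 in ABX libraries (0.59 ± 0.14, adjusted p = 0.00828), while in mice without antibiotics both groups averaged 1.31 RPKM (0.00, adjusted p = 0.998). Gm26809 had 6.02 ± 0.588 RPKM in ABX 5-FU and 3.64 ± 0.977 in ABX libraries (0.62 ± 0.13, adjusted p = 0.00645), and 73.2% of its transcript has near-identical copies elsewhere. 4833418N02Rik (0.52 ± 0.10, adjusted p = 0.00406), which starts 72 bases from Ttc7, and 2310015A10Rik (0.39 ± 0.10, adjusted p = 0.0106), 7535 bases from Zfp36l1, had the smaller changes. 4833418N02Rik reached 1 RPKM only in 5-FU libraries and so had to differ in this direction.

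The other 10 risers lost their calls in 2 to 6 of the 6 fits without 1 library. Of these Gm20467, 1700 bases from the homeobox gene Nkx2-3, was the most abundant, with 10.4 ± 1.0 RPKM in ABX 5-FU and 7.05 ± 1.18 in ABX libraries (0.51 ± 0.13, adjusted p = 0.0131); it was lost without ABX replicate 1 or ABX 5-FU replicate 3 (up to 0.0515). 4930555A03Rik had 8.71 ± 1.0 RPKM in ABX 5-FU and 6.14 ± 0.921 in ABX libraries (0.45 ± 0.14, adjusted p = 0.0366); it was lost without ABX replicate 1, ABX replicate 3, ABX 5-FU replicate 2 or ABX 5-FU replicate 3, with adjusted p up to 0.122. Its nearest coding gene, the adhesion receptor gene Adgrl4 at 141246 bases, rose too (0.87 ± 0.13, adjusted p = 0.000989). The remaining 8 were Gm26724 (0.73), Gm43672 (0.65), 2010320M18Rik (0.48), Gm16001 (0.47), Gm17619 (0.43), C030034I22Rik (0.39), Snhg6 (0.34) and 1810058I24Rik (0.32). C030034I22Rik reached 1 RPKM only in 5-FU libraries and so had to differ in this direction. Gm26724, Gm43672 and Gm17619 lost their calls without any 1 of the 6 libraries, with adjusted p up to 0.147 (Gm26724, without ABX 5-FU replicate 2), and C030034I22Rik in every one but that without ABX 5-FU replicate 1 (up to 0.172). 2010320M18Rik and Gm16001 were lost without ABX 5-FU replicate 2 or ABX 5-FU replicate 3, 2010320M18Rik also without ABX replicate 1 or ABX replicate 3 (up to 0.0653) and Gm16001 without ABX replicate 2 (0.0862). Snhg6 and 1810058I24Rik were lost without ABX replicate 1 (0.0832 and 0.072) or ABX 5-FU replicate 1, Snhg6 also without ABX 5-FU replicate 3 and 1810058I24Rik without ABX 5-FU replicate 2.

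The largest fall was that of Malat1. It measured 68.0, 59.1 and 52.3 RPKM in ABX 5-FU libraries, against 95.5, 112 and 115 RPKM in ABX libraries. Every 5-FU library was well under every library without 5-FU, and the change was -0.84 ± 0.21 (adjusted p = 0.0122). Without antibiotics it measured 80.9, 82.3 and 69.2 RPKM in Ctrl 5-FU libraries and 79.7, 129 and 165 in Ctrl libraries. There the groups overlapped through Ctrl replicate 1, and the change of -0.62 ± 0.21 was not called (adjusted p = 0.0555). It was -0.91 (adjusted p = 0.0053) without Ctrl replicate 1 and -0.39 (0.195) without Ctrl replicate 3. With no filter on low values the call with antibiotics was lost as well (adjusted p = 0.0561).

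Rbakdn was lower again, with 0.854, 0.452 and 1.03 RPKM in ABX 5-FU libraries and 1.32, 2.25 and 1.43 in ABX libraries, which did not overlap. The change of -0.58 ± 0.20 (adjusted p = 0.047) lay just past the threshold and was lost without any 1 of the 6 libraries, with adjusted p up to 0.175 (without ABX replicate 2). The other fallers were Gm26825 (-0.55), Gm26765 (-0.44), C030037D09Rik (-0.39) and AU020206 (-0.34). They lost their calls in 3 to 6 of 6 fits, and all of them in the fits without ABX replicate 2 and ABX 5-FU replicate 3, with adjusted p up to 0.119 for Gm26825 (without ABX 5-FU replicate 3), 0.11 for Gm26765 (without ABX replicate 1), 0.0715 for C030037D09Rik and 0.117 for AU020206 (both without ABX replicate 2). Gm26765 and C030037D09Rik reached 1 RPKM only in libraries without 5-FU and so had to differ in this direction. Gm26825 had 59.1, 49.4 and 45.3 RPKM in ABX 5-FU and 84.6, 77.0 and 65.3 in ABX libraries. Hspa8, whose sequence it shares, had 216 ± 17.3 RPKM in ABX 5-FU and 281 ± 12.2 in ABX libraries (-0.38 ± 0.15, adjusted p = 0.0762). Of the 25 calls 10 were kept in all 6 fits without 1 library. Among the 10, 1700016F12Rik, 2310001H17Rik and 4833418N02Rik passed the level rule only through 5-FU libraries and so had to differ.

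The pair of 5-FU comparisons share no library. They called 8 members in common, 7 higher (1700016F12Rik, 4833407H14Rik, Gm26724, Gm16001, 1700096K18Rik, 1810058I24Rik and 2310001H17Rik) and 1 lower (Rbakdn). That is 47.1% of the 17 calls without and 32.0% of the 25 calls with antibiotics; 65 members (65.7%) were called in neither. Over all tested features 69.8% of the calls without and 49.8% of the calls with antibiotics were shared, and 63.3% of features were called in neither, so the shared part of the members' calls was not above that of all features. Among the 8, 1700016F12Rik and 2310001H17Rik passed the level rule only through 5-FU libraries. Across the 99 members the log2 changes correlated at Pearson r = 0.73 and Spearman rho = 0.64, against r = 0.79 over all tested features, and 74 members (74.7%, all features 77.5%) had the same sign. These are descriptions across genes, which are not independent, and the values for the members are not above those for all features.

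**Figure D3:**
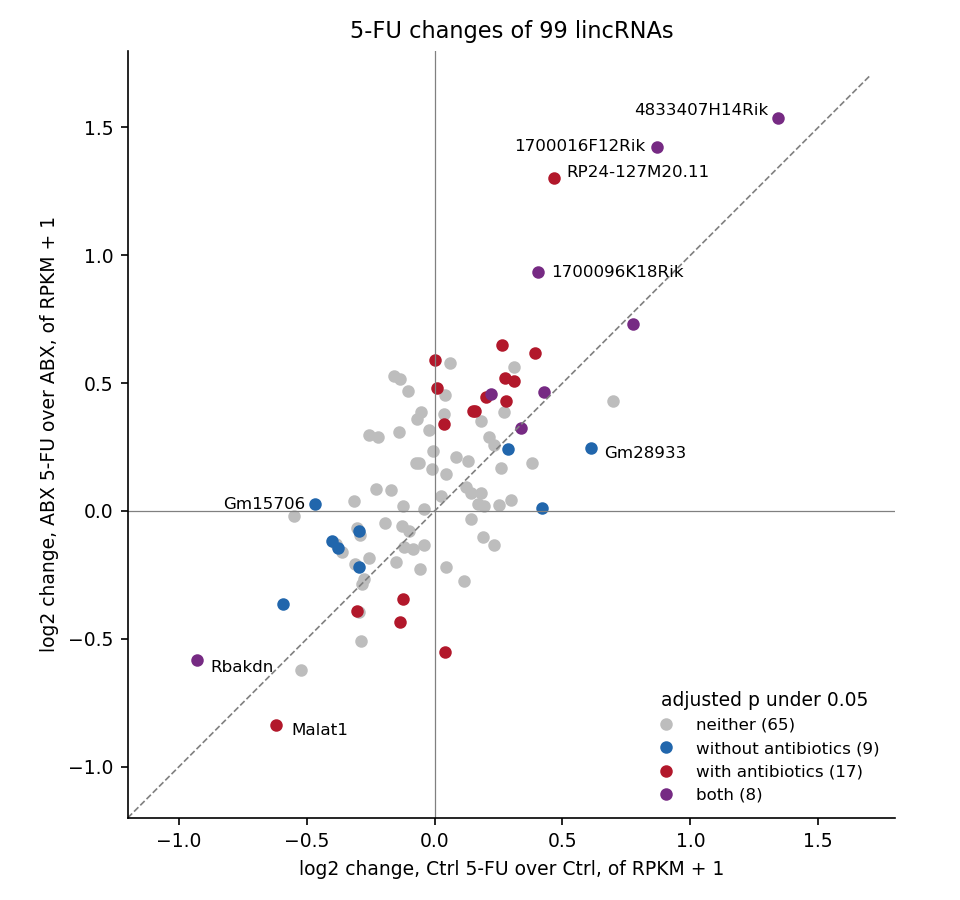
Log2 change of RPKM + 1 after 5-FU for the 99 lincRNAs, with antibiotics (vertical) against without (horizontal), coloured by the comparison in which adjusted p was under 0.05; the dashed line marks equal change. 1700016F12Rik (1.42 with, 0.87 without antibiotics), RP24-127M20.11 (1.30, 0.47) and 1700096K18Rik (0.93, 0.41) lie well above the line, and Gm28933 (0.25, 0.61) below it.

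Antibiotics alone moved no member past the threshold. In ABX against Ctrl limma called 0 of 99 members, against 0.0702% of all tested features (6 of 8553, with 0.0351% higher and 0.0351% lower); at an unadjusted p under 0.05 there were 2 members higher (2.02%, all features 10.8%) and 6 lower (6.06%, all features 6.91%). The smallest p belonged to Gm26517, which overlaps Heatr5a, with 0.762, 0.496 and 0.618 RPKM in ABX libraries and 0.965, 2.08 and 1.03 in Ctrl libraries (-0.51 ± 0.15, adjusted p = 0.155). A330009N23Rik (-0.28, adjusted p = 0.164) and C330006A16Rik (-0.34, adjusted p = 0.171) came next. The groups did not overlap in Gm26517, but Ctrl replicate 2 alone was high.

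In ABX 5-FU against Ctrl 5-FU limma again called 0 members, against 0.117% of all tested features (10 of 8553, with 0.0702% higher and 0.0468% lower), with 14 members higher (14.1%, all features 7.69%) and 6 lower (6.06%, all features 7.21%) at an unadjusted p under 0.05. The nearest to a call was Gm15706. It measured 3.49, 3.61 and 3.69 RPKM in ABX 5-FU libraries, against 2.38, 1.51 and 1.42 RPKM in Ctrl 5-FU libraries. These groups did not overlap. ABX libraries had 3.66, 3.42 and 3.47 RPKM and Ctrl libraries 3.29, 3.06 and 2.12, so Ctrl replicate 3 lay below the highest Ctrl 5-FU library. The change was 0.75 ± 0.14 (adjusted p = 0.0633). It was called without Ctrl 5-FU replicate 1 (adjusted p = 0.0123) and under each of the 3 rescalings. 1700096K18Rik (0.56, adjusted p = 0.0769) and 1700016F12Rik (0.57, adjusted p = 0.104) followed, both higher in every ABX 5-FU library than in any Ctrl 5-FU library. Each i7 index was used for 1 library with and 1 without antibiotics, and with the index as a block, an alternative chosen after seeing the data, no member was called either.

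Whether 5-FU acted differently with antibiotics was tested as an interaction, and 0 members passed, against 0.0117% of all tested features (1 of 8553). At an unadjusted p under 0.05 limma gave 11 members higher (11.1%, all features 4.0%) and 2 lower (2.02%, all features 4.3%), with a member median of 0.146 against -0.016 over all features. The smallest p were those of 1700096K18Rik (0.53, adjusted p = 0.505), RP24-127M20.11 (0.84, adjusted p = 0.506) and C920006O11Rik (0.59, adjusted p = 0.506). The greater number of calls with antibiotics is therefore not shown to be a different response of these loci.

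Members with known partners could be set beside them. Malat1 and Neat1 are neighbours on chromosome 19 and mark different nuclear bodies, speckles and paraspeckles. Neat1 stood near the threshold, with 0.919, 1.03 and 1.12 RPKM in ABX 5-FU, 0.583, 1.01 and 0.917 in ABX, 0.793, 1.63 and 1.44 in Ctrl 5-FU, and 0.675, 1.39 and 1.63 in Ctrl libraries. The groups overlapped and Neat1 was not called (0.15 ± 0.18 with and 0.04 ± 0.18 without antibiotics, adjusted p = 0.565 and 0.884). Of 20 tested genes of paraspeckle proteins 1 was higher and 6 lower after 5-FU with antibiotics, and 0 and 5 without, with medians of -0.158 and -0.115, where 13.7% and 16.5% of all features were called higher and lower with antibiotics, and 9.74% and 11.8% without. The 6 became 2 without ABX replicate 2 or ABX 5-FU replicate 2 and 3 without ABX replicate 1, ABX 5-FU replicate 1 or ABX 5-FU replicate 3. The 5 became 1 without Ctrl replicate 3, 2 without Ctrl 5-FU replicate 3 and 3 without Ctrl replicate 2 or Ctrl 5-FU replicate 2. Rescaled to one total 2 were higher and 1 lower in each, and the median without antibiotics changed sign to 0.014. Nono, a core protein of paraspeckles, fell with antibiotics (-0.28, adjusted p = 0.0087) and without (-0.24, adjusted p = 0.0267), and both calls were lost when rescaled to one total (adjusted p = 0.142 and 0.428). Without antibiotics it was also lost without Ctrl replicate 1, Ctrl replicate 3, Ctrl 5-FU replicate 2 or Ctrl 5-FU replicate 3 (up to 0.0907).

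Small nucleolar RNAs guide the chemical modification of ribosomal RNA, and 4 members (Snhg6, Snhg12, Snhg20 and Epb41l4aos) carry them in introns. Snhg6 rose after 5-FU in antibiotic-treated mice, with 5.37, 4.87 and 5.60 RPKM in ABX 5-FU libraries and 3.46, 4.35 and 4.10 in ABX libraries (0.34 ± 0.10, adjusted p = 0.023). In mice without antibiotics it had 3.58, 4.32 and 3.75 RPKM in Ctrl 5-FU and 3.41, 3.60 and 4.30 in Ctrl libraries (0.04 ± 0.10, adjusted p = 0.818). Snhg12 and Snhg20 were not called in any comparison. Snhg20 varied several-fold within groups, with 1.01, 1.99 and 2.12 RPKM in ABX 5-FU and 1.47, 2.67 and 4.92 in ABX libraries. Over the 12 tested genes of a wider list of such hosts, most of which are not typed lincRNA, Snhg6 was higher and Snhg4 lower with antibiotics, and Snhg4 lower without, with medians of -0.254 and -0.129 on the same scale of log2 change. The call of Snhg4 without antibiotics (-0.60, adjusted p = 0.0304) was lost without Ctrl replicate 2, Ctrl replicate 3, Ctrl 5-FU replicate 2 or Ctrl 5-FU replicate 3 (up to 0.119), and that with antibiotics (-0.77, adjusted p = 0.00756) was kept.

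Genes of the proteins that assemble with these small RNAs were mostly lower. Of 14 tested, 11 were lower and 0 higher after 5-FU with antibiotics, and 8 and 0 without, with medians of -0.563 and -0.314, against -0.014 and 0.005 over all features. Over all features 16.5% and 11.8% were called lower. The 8 became 5 without Ctrl replicate 3 or Ctrl 5-FU replicate 3. Rescaled to one total, 9 and 5 were still lower and 0 higher. Nop56, a core protein of the box C/D particle, had changes of -0.995 with antibiotics (adjusted p = 8.66e-05) and -0.559 without (0.00293). Fbl, its methyltransferase, had changes of -0.569 (adjusted p = 0.000693) and -0.485 (0.00251). Dkc1, the pseudouridine synthase of the box H/ACA particle, had changes of -0.591 (adjusted p = 0.000826) and -0.412 (0.00773), the second of which was lost when rescaled to one total (0.0501). None of the 4 host genes among the members was called lower.

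On a list of microRNA host genes, in which Mirt1 and Mirt2 were also placed, 0 of 11 in the table reached the level of testing. Of 5 lincRNAs listed for blood cells (among them Hotairm1, Pvt1 and Mirt2) none did, and Mirt2 is on both lists. Outside these lists 4833445I07Rik hosts Mir191 and Mir425. It had 1.47, 1.30 and 1.01 RPKM in ABX 5-FU and 0.294, 0.416 and 0.866 in ABX libraries, which did not overlap, without a call (0.58 ± 0.25, adjusted p = 0.0957). Among stress-linked noncoding genes, Tug1, not typed lincRNA in the table, rose with antibiotics (0.46, adjusted p = 0.00177) and without (0.32, adjusted p = 0.0167), there with the call lost without Ctrl replicate 1, Ctrl replicate 3 or Ctrl 5-FU replicate 3 (up to 0.0607). Gas5 was not called.

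Members that start head-to-head with a coding gene were set beside it. Of 27 head-to-head pairs 15 had a coding neighbour at the tested level, and their changes after 5-FU correlated at r = 0.23 with antibiotics and 0.36 without, over n = 15 pairs of shared libraries, with the same sign in 9 of 15 in each. In these 15 pairs 3 members and 3 neighbours were called with antibiotics, and 4 members and 1 neighbour without, so few joint calls were possible. Both partners were called in 1 pair with antibiotics, in opposite directions: 2010320M18Rik rose (0.48) with 4.87 ± 0.155 RPKM in ABX 5-FU and 3.20 ± 0.201 in ABX libraries, and Pik3r2, a regulatory subunit of PI3 kinase 102 bases away, fell (-0.36, adjusted p = 0.012), though not when rescaled to one total (0.147). Without antibiotics both partners were called in 0 pairs. Gm16001 was called in both settings, while Ogfod2, 33 bases away, was not (0.07 with and -0.03 without antibiotics, adjusted p = 0.61 and 0.824).

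In the 15 pairs of a member and a tested coding gene that it overlaps, the changes correlated at r = 0.52 with antibiotics and 0.29 without, and both partners were called in 0 pairs. Gm17300 and Rcc1, the chromatin-bound exchange factor of Ran, had changes of -0.40 and -0.57 with antibiotics, where Rcc1 passed the test (adjusted p = 0.00284) and Gm17300 did not (0.161). Reads of such pairs may be shared, also where a head-to-head member overlaps its neighbour. Gm26735, across the transcription factor gene Sox4, ranged from 0.0001 RPKM, the floor of the table, to 4.92 RPKM between libraries and within groups.

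**Figure D4:**
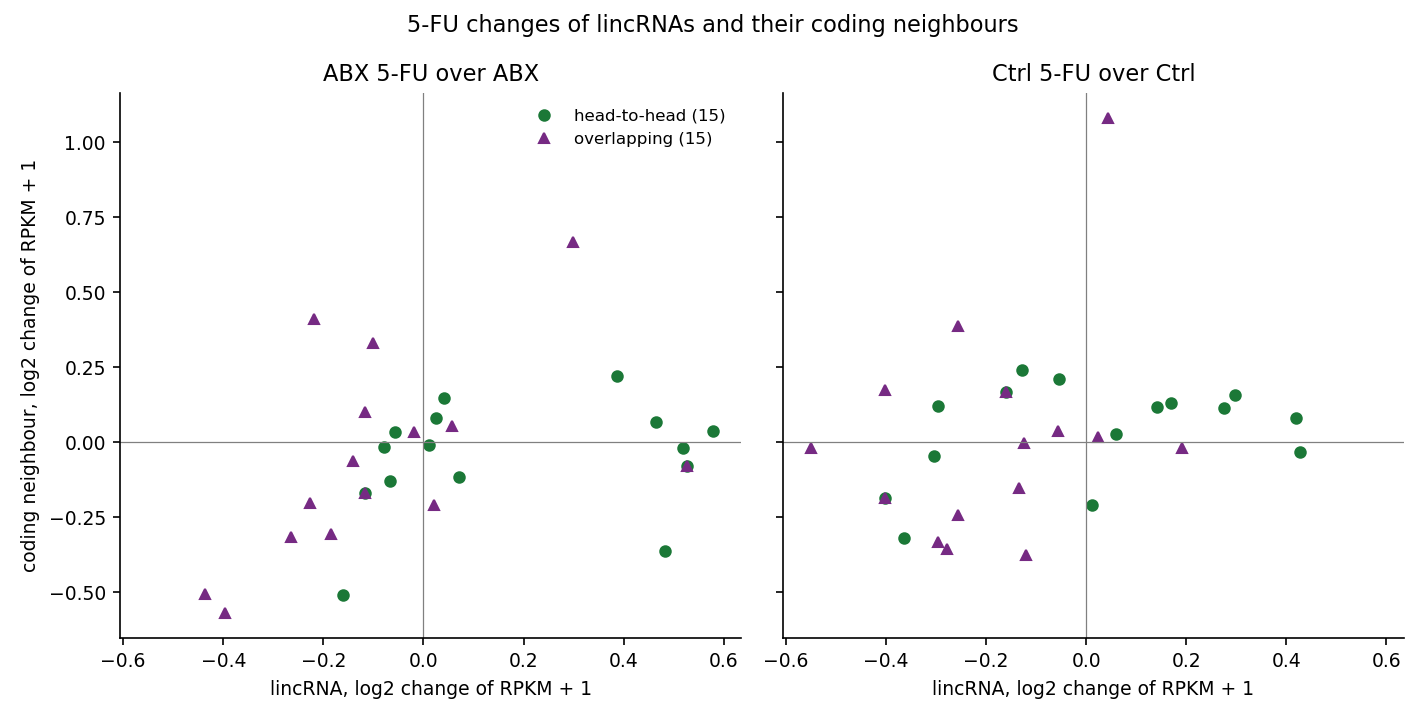
Log2 change of RPKM + 1 after 5-FU of coding neighbours (vertical) against their lincRNAs (horizontal), with antibiotics on the left and without on the right; circles are 15 head-to-head pairs and triangles 15 overlapping pairs. Points fall in all 4 quadrants of each panel, and r over the 15 pairs of a kind runs between 0.23 and 0.52.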

How the data were processed

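The authors deposited 1 table of RPKM values for 46986 features in 12 libraries, 1 column per library, in which 0.0001 stands for 0 and libraries sum to 142127 to 176924. Per the submitters' processing notes STAR 2.5.3a, Partek and mm10 were used; not given in the sources used here are the counting rule, the strand setting, the annotation release and the gates of the sort. Features at 1 RPKM or more in at least 3 libraries (8553) were tested as log2(RPKM + 1) with limma 3.58.1 in R 4.3.3, with an intensity trend, 1 fit over all 4 groups and Benjamini-Hochberg adjustment over all tested features; called means adjusted p under 0.05. On simulated data for Ctrl 5-FU against Ctrl (8553 features) this test recovered 93 of 100 changes of 1 and 99 of 100 changes of 2 on the log2 scale, with 10 calls among unchanged features. Smaller changes, such as those of most called members, were not simulated.

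Depth was estimated from the steps of low RPKM values; 48.9% to 54.6% of low values fell within 2% of a whole number of reads, too few to recover counts. Transcripts were compared with BLAST+ 2.17.0 (GENCODE M21). No sample column was left unused. The alternatives were another pseudocount (0.1), no filter, a filter at 5 RPKM, 3 rescalings, only the groups compared, no trend, leaving out each library and, added after seeing the data, the i7 index as a block for the comparisons with antibiotics. Genes named are the 10 most abundant members, up to 8 called members per direction and comparison (the 3 smallest p where fewer than 3 were called) and those on lists of related genes; other called members, and the genes outside the members (NK complex, neighbours, shared sequence, list examples), were named after their values were seen. The members and lists were chosen with earlier results of these data known.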

Additional observations from a re-analysis of the deposited data

How the results depend on the processing

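No analysis paired by replicate was possible because the labels give no replicate numbers shared between groups. The i7 index as a block was chosen after seeing the data. With it 0 members were called in ABX against Ctrl, in ABX 5-FU against Ctrl 5-FU and in the interaction. Over all features it called 20, 22 and 0. The 5-FU comparisons cannot be fitted so, since no i7 index spans them. The other index of each library does span them, and a fit with it was not run. Without antibiotics the 10 higher calls among the lincRNAs became 1 with no filter on low values, 6 with a filter at 5 RPKM, 17 when rescaled to one total, 6 after quantile normalization, 4 when only the groups compared were fitted, and 2 to 13 without 1 library. The 7 lower calls became 2 with no filter, 4 at 5 RPKM, 2 with one total, 4 with one protein-coding total, 2 with only the groups compared, and 2 to 7 without 1 library. With antibiotics the 19 higher calls became 11 with no filter and 7 at 5 RPKM, and 11 to 16 without 1 library. The 6 lower calls became 0 with no filter, 2 at 5 RPKM, 2 with one total, 2 with one protein-coding total, and 1 to 6 without 1 library. In ABX 5-FU against Ctrl 5-FU the count of 0 became 1 (Gm15706) under each rescaling, and 0 to 1 without 1 library. The filters change how many features are tested and fewer libraries leave less information; other causes were not tested. ABX against Ctrl and the interaction gave 0 calls under every alternative run. No change of a called member turned its sign under any alternative run. Of the members called without antibiotics, 1700016F12Rik and Rbakdn kept their calls under all 13 alternatives that could be run. However, 1700016F12Rik passed the level rule only through 5-FU libraries and so had to differ. Rbakdn reached 1 RPKM in every library without 5-FU, and among 5-FU libraries only in ABX 5-FU replicate 3 (1.03 RPKM). With antibiotics Rbakdn lost its call under 9 of 13. Other members kept theirs there under all that could be run, such as 4833407H14Rik (14) and RP24-127M20.11 (13). Depth limits members near 1 RPKM, for which 1 RPKM is an estimated 51 to 101 reads at median length.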
